A study of Danio rerio with 10 samples.

Results

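The 10 genes of the circadian clock described here were measured in whole zebrafish larvae at 3 dpf, in can4-/- homozygotes, which carry a mutation in top2a, and in WT larvae of the same incross. The genes were chosen by name in the gene annotation that accompanied the counts: clocka, clockb, arntl1a, arntl1b, per1a, per1b, per2, per3, nr1d1 and nr1d2a, which are 10 of the 25911 genes in the count table. All 10 had enough counts to be tested. Each genotype had 5 pools of 9 larvae from can4 heterozygous parents on the AB background, and no other treatment was given. The larvae were lysed one by one, genotyped, and only then pooled by genotype. The authors warn that morphological defects and a possible loss of neurons in homozygotes may skew these RNA data. Neither the hour of lysis nor the lighting of these larvae is stated in the labels or the methods, so the levels below belong to an unstated phase of the daily cycle. Homozygotes do not survive. The paper describes maternal top2a mRNA as present up to 3 dpf, the age sampled here, though at low levels. It expects a partial depletion of Top2a in homozygotes over those days. A whole larva holds every tissue, so a count does not show which cells it came from.

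The vertebrate clock is a loop of transcription. CLOCK and BMAL proteins (BMAL is encoded by the arntl genes) pair up and switch on the per and cry genes, whose proteins come back to the nucleus and switch the pair off. A second loop runs through nuclear receptors: REV-ERB proteins (the nr1d genes) repress and ROR proteins activate the BMAL genes. In zebrafish most genes of the loop exist as copies from an ancient genome duplication, nearly every tissue keeps its own clock, and cells respond to light directly. Light induces per2 and cry1a, while per1b and per3 are driven by the clock itself and peak around dawn, in antiphase to the clock and arntl genes, which peak around dusk.

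The library totals were 29281449 to 45544046 counts in WT and 30098991 to 38106622 in mutants. The mutated gene itself, top2a (topoisomerase IIα), fell from 8651 ± 248 normalized counts in WT pools to 802 ± 311 in mutant pools (SD, n = 5), and the groups did not overlap. Normalized counts here are counts scaled to the average library, with library sizes corrected by TMM, a factor that assumes most genes change little between libraries. A gene was called when edgeR's quasi-likelihood test over 23039 genes gave a Benjamini-Hochberg adjusted p below 0.05. The mutation moved much of the transcriptome: 73.2% of all genes tested were called, 36.9% as lower and 36.3% as higher in can4-/- larvae. With plain library totals in place of TMM every log2 fold change shifts by a median of -0.17. Of 23 pineal and photoreceptor markers 21 were lower in mutants. The summed level of the 23 was 67742 to 109933 normalized counts in WT pools and 1722 to 2913 in mutant pools. Photoreceptor counts weigh most in that sum. The opsin gene opn1sw1 alone had a WT mean of 15545, against 117 for aanat2, 144 for exorh and 282 for asmt2. The sum therefore does not describe these last pineal and melatonin genes, whose own smaller changes are given below. The UV-cone opsin marker opn1sw1 was at 0 in 2 mutant pools and the guanylate cyclase activator marker guca1d in 3. These were the only 2 of the 23 markers with a 0 in any mutant pool. In mutant replicate 2 opn1sw1 stood at 99.3 normalized counts.

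The clock genes were on balance lower in can4-/- larvae. Of the 10, 8 were lower (clocka, clockb, arntl1a, arntl1b, per1b, per3, nr1d1 and nr1d2a), 0 were higher, and per1a and per2 did not pass. The background for a lower call is the 36.9% given above. The 10 genes were chosen with earlier results of these data known, so setting their count beside that share is a description and not a test. The count of 0 higher was also 0 at an unadjusted p under 0.05 in edgeR, and 0 by DESeq2 and by limma voom. The median log2 fold change of the 10 was -0.32, where the median of all genes tested was 0.0027. Most of these changes were small: nr1d1 alone fell at least 2-fold, a size of decrease that 11.9% of all genes reached. The 5 mutant pools lay below the 5 WT pools without overlap for clocka, clockb, arntl1a, arntl1b and nr1d1, and 31.4% of all genes were so separated. For none of the 10 did all mutant pools lie above all WT pools, as they did for 29.4% of all genes. With library totals in place of TMM, arntl1a stood at -0.50, arntl1b at -0.48, per3 at -0.50 and nr1d2a at -0.49 on the log2 scale, against the smaller TMM values given below. In whole larvae fewer cells of a type and less RNA per cell cannot be told apart. The fall of the photoreceptor markers took place in the same pools, and its part in these values was not tested.

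**Figure D1:**
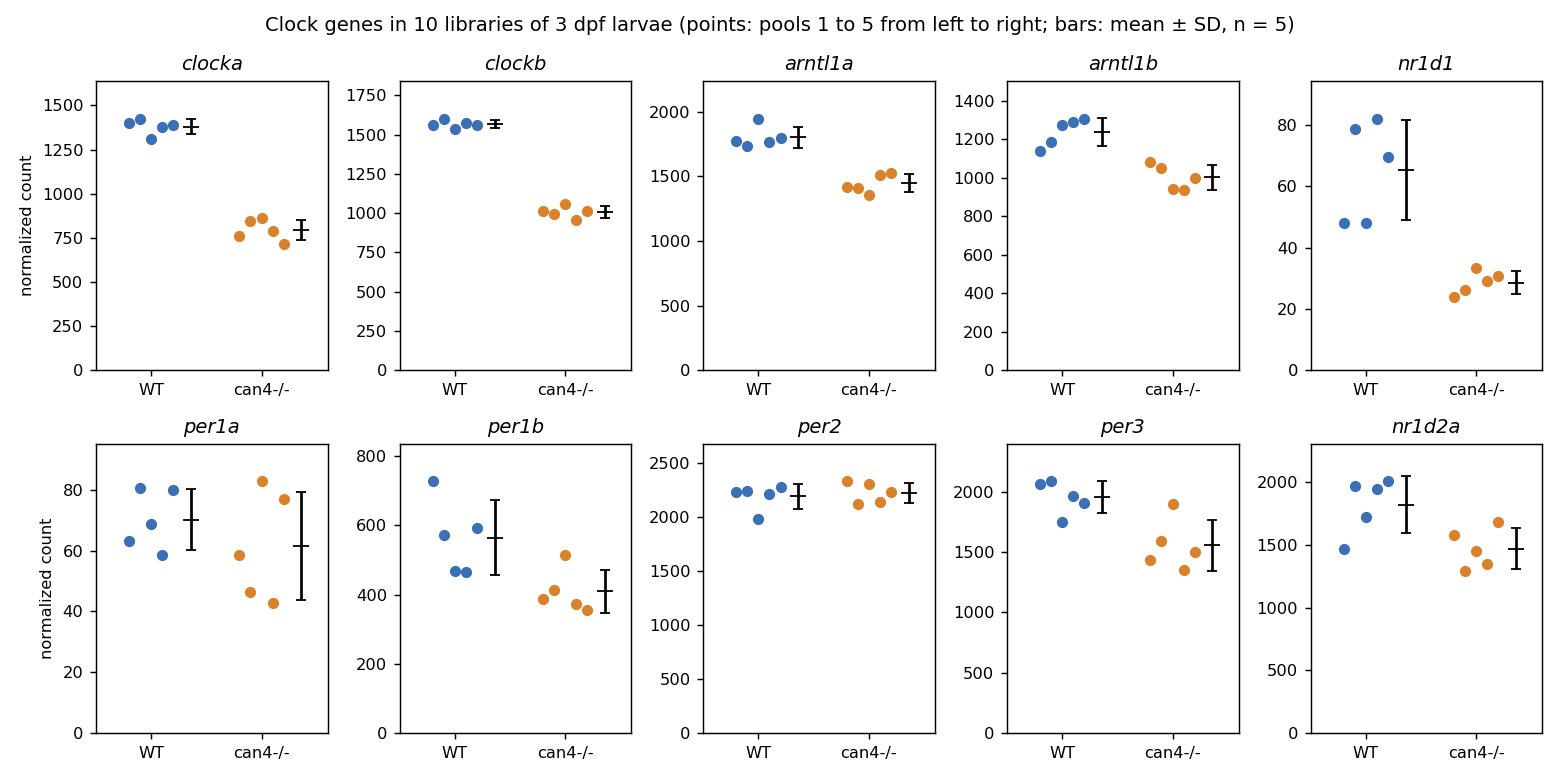
Normalized counts of the 10 clock genes in every library, with pools 1 to 5 of each genotype from left to right and the mean ± SD (n = 5) beside them; each panel has its own vertical axis from 0. The mutant points lie below all WT points for clocka, clockb, arntl1a, arntl1b and nr1d1, and they overlap the WT points for per1a, per1b, per2, per3 and nr1d2a.

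All 4 of the activator genes followed here fell, clocka and clockb more than arntl1a and arntl1b. The gene clocka (ENSDARG00000011703, chromosome 20 from 22067337 to 22176003 of GRCz11, forward strand) encodes a bHLH-PAS transcription factor. It stood at 1402, 1425, 1310, 1380 and 1388 normalized counts in WT replicates 1 to 5 and at 762, 844, 860, 788 and 718 in mutant replicates 1 to 5. The lowest WT pool thus lay far above the highest mutant pool. The fall was -0.80 on the log2 scale (standard error 0.052, edgeR adjusted p = 9.35e-09), so that clocka fell by 42.4%. An antisense gene overlaps clocka over 1935 bases and held 16 counts over all 10 libraries. How reads in the overlap were assigned is not known, and its part in the clocka counts was not tested.

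Its copy clockb (ENSDARG00000003631, chromosome 1 from 19433004 to 19466453, forward strand) was the steadiest of the 10 genes. WT pools stood at 1564, 1601, 1535, 1574 and 1561 normalized counts and mutant pools at 1011, 996, 1057, 958 and 1014. The spread between WT pools was 1.53% of their mean, below the 2.42% that counting alone would give. Its log2 fold change was -0.64 (standard error 0.038, edgeR adjusted p = 4.00e-09), a level that fell by 35.7%.

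For arntl1a (ENSDARG00000006791, chromosome 25 from 17893784 to 17918810, reverse strand), one of a pair of copies of the BMAL1 gene, WT pools stood at 1771, 1736, 1944, 1768 and 1793 normalized counts and mutant pools at 1420, 1413, 1357, 1511 and 1523. WT replicate 3 was the highest of its group by a wide gap. The log2 fold change was -0.32 (standard error 0.046, edgeR adjusted p = 2.42e-05). The other copy, arntl1b (ENSDARG00000035732, chromosome 7 from 66048102 to 66105828, forward strand), ranged from 1136 to 1305 normalized counts in WT and from 937 to 1081 in mutants, so the groups came close without overlap. On the log2 scale it changed by -0.30 (standard error 0.055, edgeR adjusted p = 1.97e-04).

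**Figure D2:**
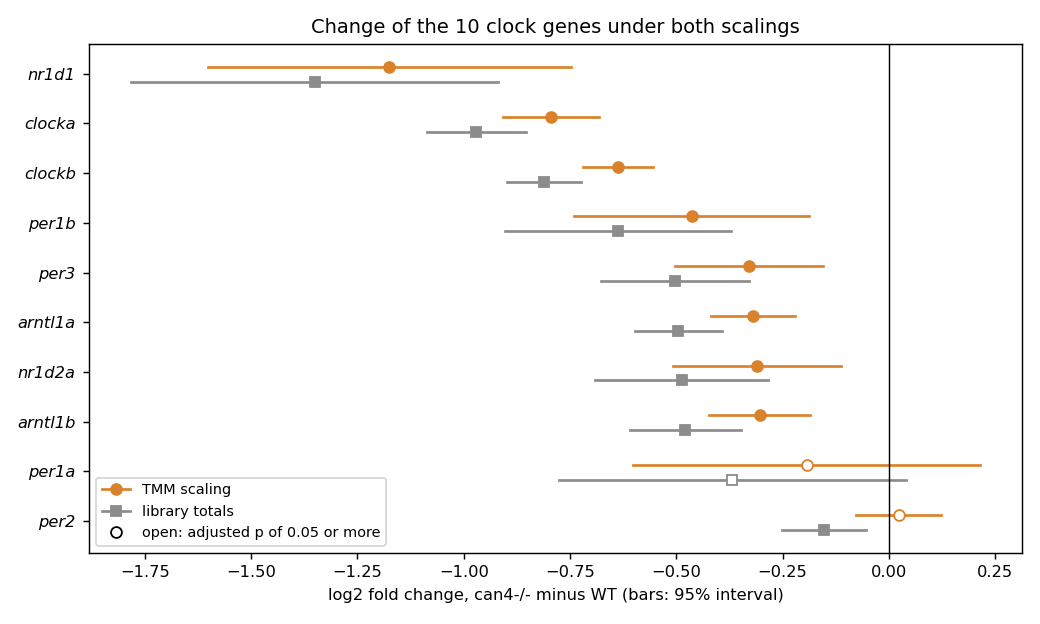
Log2 fold change of each clock gene in can4-/- against WT larvae (n = 5 pools each) with its 95% interval, with TMM scaling (circles) and with library totals (squares); open symbols did not pass. The gene nr1d1 stood at -1.18 and clocka at -0.80 with TMM, and per2 moved from 0.02 with TMM to -0.15 with library totals, where it passed.

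The ratio of a pair of copies within a library does not depend on how libraries are scaled, so it shows whether copies moved together. The log2 ratio of clocka to clockb counts was -0.18 ± 0.028 in WT pools and -0.34 ± 0.11 in mutant pools (SD, n = 5), and every mutant pool was below every WT pool. The WT ratios ran from -0.23 to -0.16 and the mutant ratios from -0.50 to -0.24, so the nearest pools almost touched. The difference of -0.16 had p = 0.00794 in a two-sided exact permutation test, the smallest p that 5 pools against 5 allow, and an adjusted p = 0.0238 over the 3 pairs compared. The ratio of arntl1a to arntl1b was 0.54 ± 0.086 in WT pools and 0.53 ± 0.12 in mutant pools (SD, n = 5), and the groups overlapped (exact permutation test, adjusted p = 0.817). The ratio of per1a to per1b was -2.99 ± 0.30 in WT and -2.76 ± 0.39 in mutants and also overlapped (exact permutation test, adjusted p = 0.512, n = 5). This last pair has few counts on one side, since per1a held 40 to 95 counts per library. A gene annotated on the same strand, AL807389.1, overlaps per1a over 3064 bases and is not among the genes of the count table used here, and its part in the per1a counts was not tested. Reads were counted per gene by a program not named in the sources used here, and similar copies may share some reads.

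**Figure D3:**
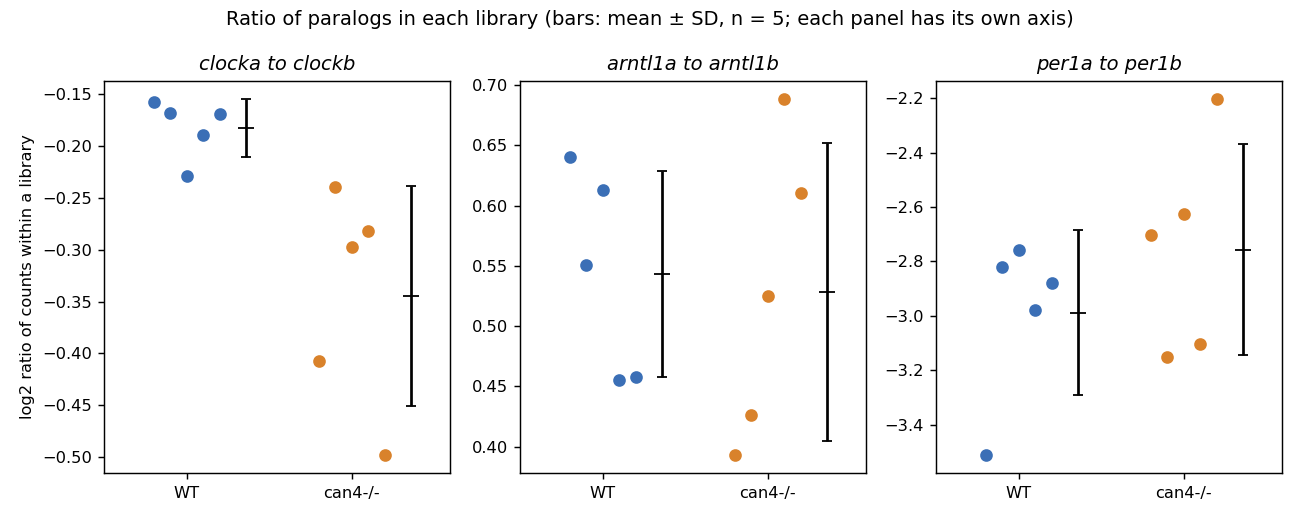
Log2 ratio of the raw counts of a pair of copies (0.5 added to each count) in every library, with the mean ± SD of each genotype (n = 5); the vertical axis differs between panels. The clocka to clockb ratios of the mutants (-0.50 to -0.24) lie below those of WT (-0.23 to -0.16), while the groups overlap for the arntl1 and per1 pairs.

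Among the period genes, which encode the repressors of the loop, the clock-driven copies per1b and per3 fell. Neither the light-induced per2 nor per1a passed. The gene per1b (ENSDARG00000012499, chromosome 7 from 50822465 to 50847296, forward strand) stood at 727, 573, 468, 465 and 591 normalized counts in WT and at 386, 414, 514, 373 and 356 in mutants. Mutant replicate 3 reached above WT replicates 3 and 4, so the groups overlapped. The log2 fold change was -0.46 (standard error 0.13, edgeR adjusted p = 0.00490).

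For per3 (ENSDARG00000010519, chromosome 11 from 39959039 to 40021080, forward strand) the WT pools stood at 2062, 2085, 1751, 1967 and 1908 normalized counts and the mutant pools at 1432, 1592, 1900, 1353 and 1498. Again mutant replicate 3 was high and WT replicate 3 low, and only these made the groups overlap. The log2 fold change was -0.33 (standard error 0.081, edgeR adjusted p = 0.00223).

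The gene per2 (ENSDARG00000034503, chromosome 2 from 48309600 to 48375342, reverse strand) stood at 2237, 2244, 1988, 2215 and 2285 normalized counts in WT and at 2332, 2127, 2306, 2142 and 2232 in mutants. WT replicate 3 was the lowest of all 10 libraries, and the other 9 were mixed. Its log2 fold change was 0.02 with a 95% interval from -0.08 to 0.12 (edgeR adjusted p = 0.674), so a change of per2 as large as that of per3 lies outside the interval. Without WT replicate 3 the value was -0.0085 (adjusted p = 0.870). With library totals in place of TMM it was -0.15 (edgeR adjusted p = 0.00857), which is close to the shift of all genes under that scaling. The gene per1a (ENSDARG00000056885, chromosome 10 from 22809715 to 22831611, reverse strand) ranged from 58.4 to 80.8 normalized counts in WT and from 42.9 to 82.8 in mutants. Its log2 fold change of -0.19 did not pass (edgeR adjusted p = 0.370), and the 95% interval from -0.60 to 0.21 takes in the value of per1b.

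The REV-ERB genes, repressors of the second loop, held the largest change of the 10. The gene nr1d1 (ENSDARG00000033160, chromosome 3 from 23488652 to 23496223, forward strand) encodes REV-ERBα. It stood at 48.1, 78.8, 47.9, 82.0 and 69.7 normalized counts in WT and at 23.7, 26.0, 33.3, 28.9 and 30.8 in mutants. The WT pools split into a low pair, replicates 1 and 3, and a high trio, yet all lay above the mutant pools. The log2 fold change was -1.18 (standard error 0.20, edgeR adjusted p = 1.02e-04), so that the level fell by 55.7%. It rests on 19 to 81 counts per library, and the interval from -1.60 to -0.75 is wide. For nr1d2a (ENSDARG00000003820, chromosome 16 from 50089417 to 50111057, forward strand), a REV-ERBβ copy, the range was 1465 to 2007 normalized counts in WT and 1288 to 1683 in mutants. WT replicate 1 was the low one of its group and lay within the mutant range. On the log2 scale it changed by -0.31 (standard error 0.091, edgeR adjusted p = 0.00729).

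The rest of the pathway was described with a list of 25 further core clock genes that were tested. Of these, 16 were lower, 4 were higher and 5 did not pass in edgeR, and the median of their log2 fold changes was -0.28, beside 36.9% lower and 36.3% higher over all genes tested. With library totals 20 were lower and 2 higher. All 5 REV-ERB genes fell, the 2 followed above included. The remaining REV-ERB genes were nr1d2b, the second REV-ERBβ copy, at -0.67 (standard error 0.048), nr1d4a at -2.07 (standard error 0.35) and nr1d4b at -1.22 (standard error 0.11) on the log2 scale. The level of nr1d4a was low, with 30.8 to 66.3 normalized counts in WT and 3.75 to 20.4 in mutants.

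The ROR genes, the activators that bind the same DNA element as REV-ERB, held the largest single decrease of the pathway. Of 6 tested, 5 fell, where 36.9% of all genes were lower and 11.9% at least 2-fold lower. Only rorc did not pass, at 0.22 (edgeR adjusted p = 0.499) on 8 to 20 counts per library. The gene rorb, whose mammalian counterpart is known from the retina and brain, stood at 1127, 965, 940, 800 and 829 normalized counts in WT and at 132, 300, 135, 165 and 94.7 in mutants. Mutant replicate 2 was the highest mutant pool for rorb, and also for top2a and for the summed pineal and photoreceptor markers. Its log2 fold change was -2.47 (standard error 0.22, edgeR adjusted p = 1.75e-07). The copies roraa and rorab stood at -1.89 (standard error 0.13) and -1.74 (standard error 0.059), and rorca and rorcb at -0.70 and -0.46 on the log2 scale. The fall of the photoreceptor markers in the same pools, from 67742 to 109933 down to 1722 to 2913 normalized counts in sum, is the larger one, and its part in the ROR values was not tested.

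The BMAL2 gene arntl2 stood at -0.21 (standard error 0.052, edgeR adjusted p = 0.00212). The CLOCK relative npas2 had a log2 fold change of -0.22 (edgeR adjusted p = 0.0521) and did not pass. It passed by limma voom (adjusted p = 0.0369), with the replicate block (edgeR adjusted p = 0.0428), with library totals (edgeR adjusted p = 0.00249) and without mutant replicate 5 (edgeR adjusted p = 0.00177). Together with the 4 genes above, 5 of 6 activator genes were lower and none was higher, beside 36.9% lower and 36.3% higher over all genes. Cryptochromes are the partners of PER in repression, and 4 of 5 were lower, beside the same 36.9%. Of these, cry1b had the lowest value, at -0.51 (standard error 0.085), while the light-induced cry1a stood at -0.12 (standard error 0.043, edgeR adjusted p = 0.0219). That call was lost without WT replicate 4, without WT replicate 5 or without mutant replicate 4 (edgeR adjusted p = 0.0588, 0.0623 and 0.0685). The copies cry3a and cry3b stood at -0.28 and -0.15 on the log2 scale. The gene cry2 had a value of -0.03 (edgeR adjusted p = 0.559) and passed only with library totals, at -0.21.

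Genes that mark PER and CRY proteins for turnover, and a pair of further repressors, moved in both directions. The casein kinase gene csnk1db rose by 0.29 (standard error 0.037) on the log2 scale, while csnk1e fell by 0.29. The copy csnk1da rose by 0.12 (edgeR adjusted p = 0.0310), and its WT and mutant pools overlapped. The gene fbxl3a, which encodes the F-box protein that sends cryptochromes for breakdown, stood at -0.60 (standard error 0.044). Its copy fbxl3b did not pass, at -0.0051 (edgeR adjusted p = 0.948). The DEC repressor genes bhlhe40 and bhlhe41 rose by 0.23 and 0.53 on the log2 scale. The rise of bhlhe40 was 0.05 with library totals (edgeR adjusted p = 0.377) and did not pass. Under that scaling only csnk1db, at 0.12, and bhlhe41, at 0.36, were called higher in the core clock list, so csnk1da was not. The CIART repressor gene ciarta stood at -0.35 (standard error 0.064), and its copy ciartb did not pass, at -0.07 (edgeR adjusted p = 0.478).

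**Figure D4:**
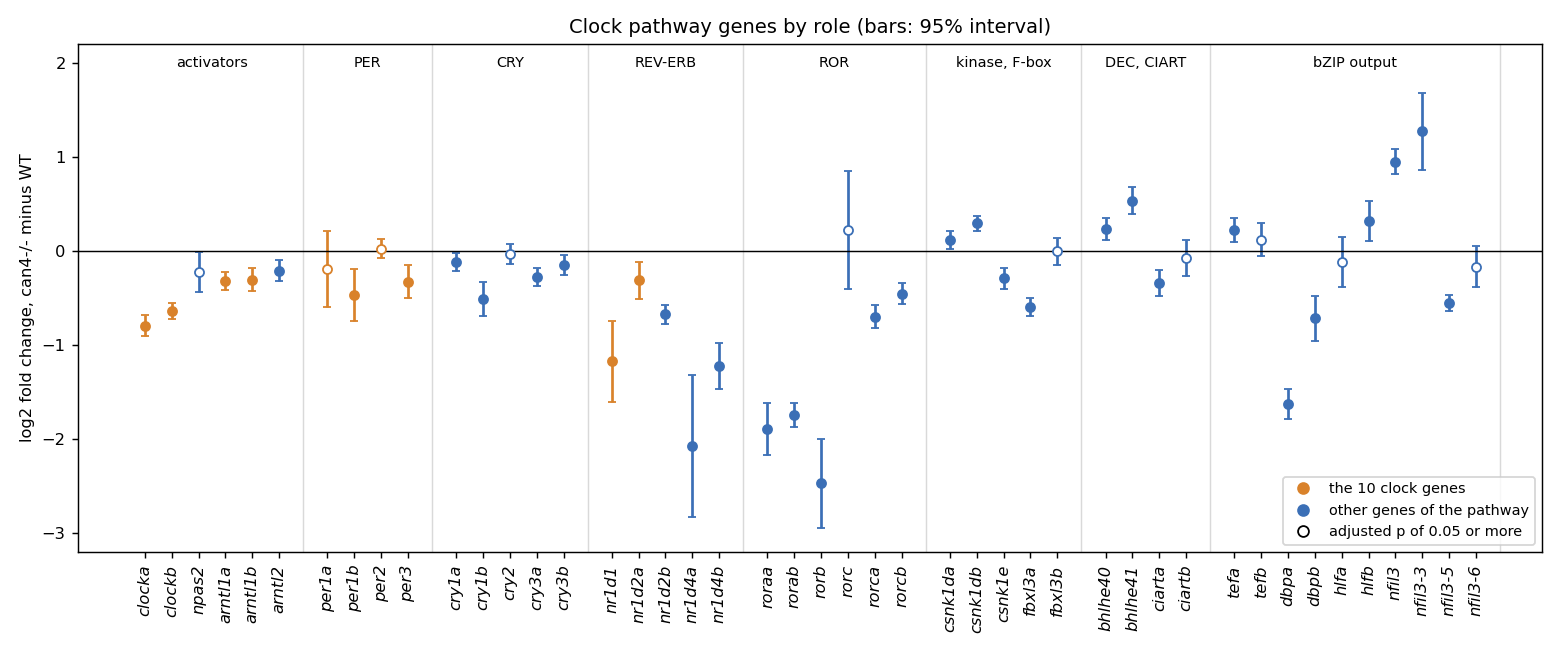
Log2 fold change in can4-/- against WT larvae (n = 5 pools each, TMM scaling) with 95% intervals for clock pathway genes grouped by role; the 10 clock genes are in orange, other genes in blue, and open circles did not pass. REV-ERB and ROR genes hold the lowest values (rorb at -2.47), and the bZIP genes spread from dbpa at -1.63 to nfil3-3 at 1.27; with library totals all values shift by a median of -0.17, and per2 then lies below 0.

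The clock passes its rhythm on through bZIP factors that bind the D-box element, activators of the DBP, TEF and HLF kind and the repressor NFIL3. Of 10 such genes 3 were lower, 4 were higher and 3 did not pass, which is near the 36.9% lower and 36.3% higher of all genes. With library totals 5 were lower and 2 higher. The gene dbpa stood at 712, 830, 738, 731 and 840 normalized counts in WT and at 225, 250, 281, 228 and 262 in mutants. The groups lay far apart, and the log2 fold change was -1.63 (standard error 0.075, edgeR adjusted p = 3.39e-10). Its copy dbpb stood at -0.72 (standard error 0.11). The repressor gene nfil3 went the other way, from 1608 to 1741 normalized counts in WT to 2820 to 3675 in mutants. The value of nfil3 was 0.95 (standard error 0.062, edgeR adjusted p = 8.76e-09). Its relative nfil3-3 rose by 1.27 on the log2 scale from a low level of 13.5 to 20.5 normalized counts in WT, where 8.71% of all genes rose at least 2-fold. The family member nfil3-5 fell by 0.55. The genes tefa and hlfb rose by 0.22 and 0.32, but with library totals neither passed (0.04 and 0.14, edgeR adjusted p = 0.505 and 0.220). The gene aanat2, which encodes the melatonin rhythm enzyme of the pineal gland and is a classic clock output in zebrafish, ranged from 93.4 to 145 normalized counts in WT and from 34.3 to 51.6 in mutants. On the log2 scale it changed by -1.40 (standard error 0.17, edgeR adjusted p = 3.28e-06). Of the 23 pineal and photoreceptor markers, aanat2 is 1 of the 21 that were lower. The 2 that did not pass were the pineal opsin gene exorh, at -0.14 (edgeR adjusted p = 0.441), and asmt2, a copy of the gene for the last enzyme of melatonin synthesis, at 0.04 (edgeR adjusted p = 0.591).

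Genes known to be induced by light in zebrafish moved in both directions. Of 9 tested, which include per2, cry1a and tefa, 4 passed as higher and 2 as lower, and 3 did not pass, with a median log2 fold change of 0.15, where 36.3% of all genes were higher and 36.9% lower. The photolyase-like genes cry5 and cry-dash, whose proteins repair DNA with the energy of light, rose by 0.30 (standard error 0.064) and 0.31 (standard error 0.074). With library totals they stood at 0.13 and 0.14 and did not pass (edgeR adjusted p = 0.0925 and 0.116). The heme oxygenase gene hmox1a, which also answers to oxidative stress, had by far the largest value of the list, from 401 to 562 normalized counts in WT to 2098 to 3021 in mutants. Its log2 fold change was 2.54 (standard error 0.11, edgeR adjusted p = 1.41e-10). With library totals hmox1a stood at 2.36 and was the only one of the 4 to keep its call as higher. Under that scaling tefa stood at 0.04 and did not pass, and per2 was lower, at -0.15.

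How much pools of one genotype differed depended on the gene. For 8 of the 10 the coefficient of variation was above that of counting alone in both genotypes, while it was below it for clockb in WT and for nr1d1 in mutants (13.3% against 19.6%). For per1b the coefficient of variation was 19.1% in WT, where counting alone gives 4.03%, and 15.3% in mutants against 5.18%. For nr1d2a it was 12.5% against 2.26% in WT, and for per3 13.6% against 2.66% in mutants. The clock and arntl genes were steadier, from 1.53% for clockb to 5.91% for arntl1b in WT and from 3.52% to 7.38% in mutants. The gene per2 lay within these ranges, at 5.37% in WT and 4.18% in mutants. Among all genes tested, the fitted biological variation of clockb was at the 0.573 percentile from the bottom and that of per1b at the 79.4 percentile. The low-count genes nr1d1 and per1a had the highest fitted values of the 10, both at the 88.1 percentile. That rank does not show that they vary most between pools. The spread of nr1d1 in mutants was below counting alone, and that of per1a in WT was 14.1% against 11.5%.

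Some pools were the highest or lowest of their genotype for many clock genes. Every gene has a highest and a lowest pool among the 5 of a genotype, so each pool holds some of these places in any case. WT replicate 3 was the lowest of its genotype for 5 of the 10 (per2, per3, clocka, clockb and nr1d1) and the highest for arntl1a. It was also the lowest WT pool for 6 of the 9 light-induced genes, where per2 is counted again. Relative to the WT mean, WT replicate 3 deviated by -9.38% for per2, -10.4% for per3 and -13.6% for cry-dash, and by 7.87% for arntl1a. Mutant replicate 3 was the highest of its genotype for 6 of the 10 (per1a, per1b, per3, clocka, clockb and nr1d1) and the lowest for arntl1a. In that pool per1b stood 25.7% and per3 22.2% above the mutant mean, and arntl1a deviated from it by -6.07%. Mutant replicate 4 was lowest for 7 of the 9 light-induced genes and mutant replicate 5 highest for 7 of them. These are descriptions of single pools, and nothing in the labels sets these pools apart. The 8 lower calls were made again without WT replicate 3 and without mutant replicate 3.

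**Figure D5:**
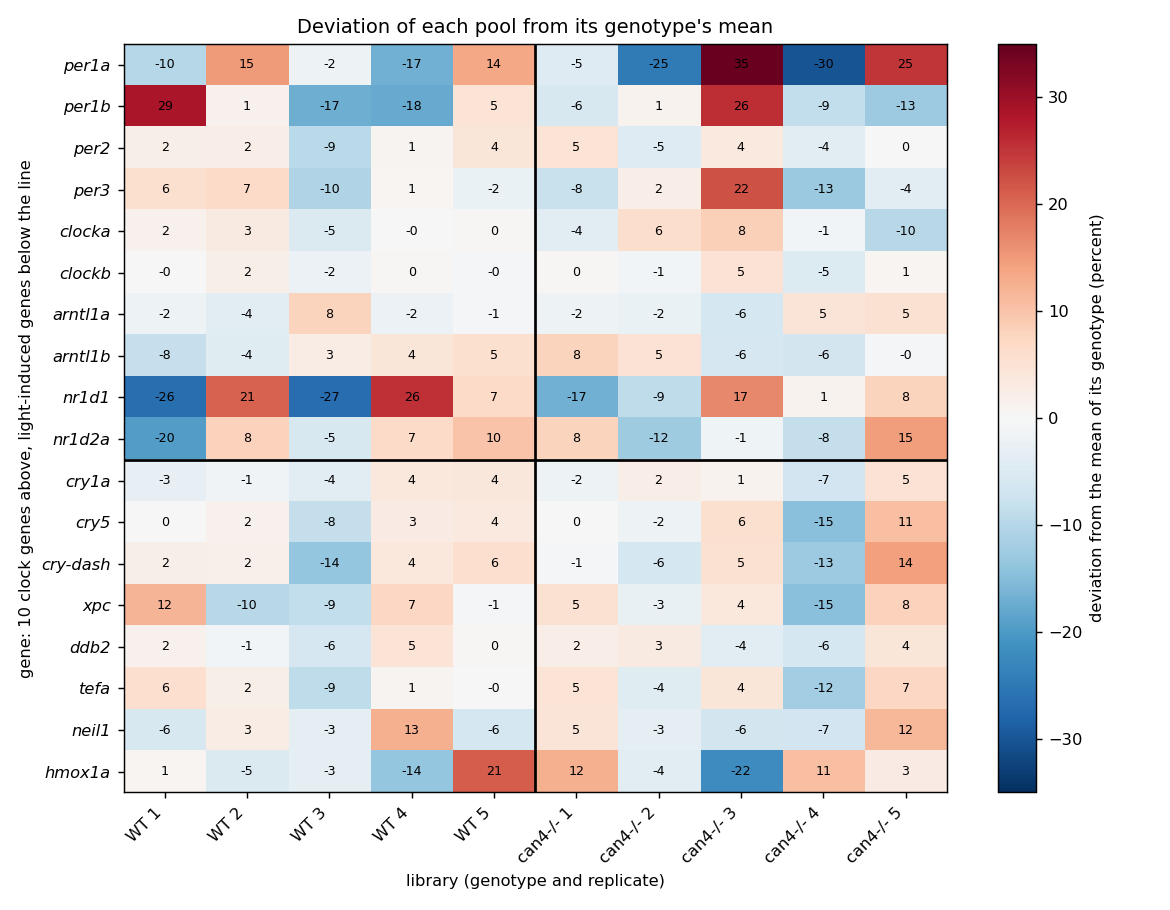
Deviation of each library from the mean of its genotype, in percent of that mean, for the 10 clock genes (above the horizontal line) and 8 other light-induced genes (below it); the vertical line parts WT from can4-/- pools. WT replicate 3 is low for per2, per3, cry5 and cry-dash and high for arntl1a, and mutant replicate 3 is high for per1a, per1b and per3 and low for arntl1a.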

How the data were processed

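RNA was sequenced from 5 can4-/- and 5 WT pools of 9 larvae at 3 dpf, after ribosomal RNA removal with a kit that keeps the strand. The authors aligned reads with STAR (2.7.0f and GRCz11 in the submitters' processing notes), used MultiQC for quality checks, and deposited raw counts for 25911 Ensembl genes. The sources used here do not name the read counter or its strand option. The deposited normalized and rlog values, and the authors' own comparison from DESeq2 (1.24.0 in the processing notes), which holds fold changes and p-values, were not used.

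From the counts, edgeR 4.0.16 in R 4.3.3 gave TMM factors and quasi-likelihood tests with genotype as the only term, over 23039 genes kept by filterByExpr (minimum count 10, minimum total 15). Standard errors were obtained from the F statistic (log2 fold change over root F), and intervals are at 95%. The code was tested on simulated data in which few genes changed, so that run does not test the assumption behind TMM. Ratios of copies were compared by a two-sided exact permutation test, with Benjamini-Hochberg adjustment over the 3 pairs. The 20 pairs of pools within a genotype differed by more than sampling noise (chi-square per degree of freedom from 4.79 to 27.2), and each pool was 1 replicate.

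The members and gene lists were chosen with earlier results of these data known, and the lists were written from general knowledge. All 10 members are named. Of the core clock, bZIP and light-induced lists, every gene called at least 2-fold changed is named, filled up to 4 by size where fewer were, and the pineal and photoreceptor markers are given as counts and a summed level. The genes nr1d2b, arntl2, npas2, the cry1 to cry3 genes, csnk1db, csnk1e, fbxl3a, bhlhe40, bhlhe41, ciarta, rorca, rorcb, nfil3-5, hlfb, aanat2, exorh, asmt2, opn1sw1 and guca1d were chosen after their values were seen. So were rorc, csnk1da, fbxl3b and ciartb. The genes rorc, csnk1da, fbxl3b, ciartb, opn1sw1 and guca1d were not among the refits of single genes. The alternatives were DESeq2 1.42.0, limma 3.58.1 voom, RLE factors, library totals, no filter, a stricter filter (50 counts in all libraries of a genotype), a replicate block, leaving out each pool, and for the ratios a pseudocount of 5 in place of 0.5. Levels of different genes were not compared, since no transcript lengths were used. Counts of markers were set side by side only for their weight in the summed level. No sequences are shown.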

Additional observations from a re-analysis of the deposited data

Results flagged for a closer look

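Each named gene that was refitted and each ratio was examined in each genotype for a library far from the other 4. Far meant a gap to the nearest of them over 0.71 of the whole range. Of 96 such groups 10 had one. The cutoff gives about 1 in 20 for independent normal values. These genes share the same 10 libraries, so an excess cannot be read from the count. WT replicate 3 was the library in question for several genes. It held 1988 normalized counts of per2 against 2215 to 2285 in the other WT pools, 1944 of arntl1a against 1736 to 1793, 952 of cry-dash against 1121 to 1168, and 951 of cry5 against 1041 to 1075. Mutant replicate 5 held 288 of npas2 against 199 to 222. For cry3b mutant replicate 3 was low, at 2399 against 2453 to 2475. The gene rorca was high in mutant replicate 2, at 1150 against 1009 to 1046, and rorcb low in WT replicate 1, at 3366 against 3860 to 3992. For top2a WT replicate 1 was high at 9082 against 8498 to 8646, and mutant replicate 2 at 1358 against 635 to 688.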

How the results depend on the processing

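The count of 8 clock genes lower and 0 higher was the same under 16 of the 17 alternatives, and 9 were lower with library totals, where per2 turned from 0.02 to -0.15 and passed. Leaving out 1 pool at a time, per2 ranged from -0.0085 (without WT replicate 3) to 0.040. In 168 of 170 refits of a single clock gene the direction and the call were as reported. Of the other core clock genes, the number higher fell from 4 to 2 with library totals and the number lower rose from 16 to 20. Of the bZIP genes, 5 were lower and 2 higher under that scaling, while 5919 of all genes were higher and 10997 lower. The labels do not say whether the replicate numbers pair the pools. The deviations of same-numbered pools correlated at -0.02 to 0.03, and those of differently numbered pools at -0.10 to 0.12. These values show no sign of pairing, but they cannot tell how the pools were collected. With a replicate block 8 clock genes were lower and 0 higher, and over all genes 8179 were higher and 8344 lower. With the replicate block (exact sign-flip test of 5 differences) the clocka to clockb difference was -0.16 with an adjusted p = 0.188, in a design that cannot pass. The arntl1a to arntl1b difference, which did not pass, ranged from -0.055 to 0.019 over the fits that leave out 1 pool. Of the 10 clock genes depth limits per1a and nr1d1 most. Of the other named genes nr1d4a (3 to 59 counts per library), nfil3-3 (12 to 44), rorc (8 to 20) and guca1d (0 to 64) had fewer counts than per1a. In mutant pools aanat2 and opn1sw1 were low as well. Counting alone gives a coefficient of variation of 15.8% and 21.1% for them there, against 13.4% for per1a. For the 35 other named genes that were refitted, 579 of 593 refits kept direction and call, and 8 lost and 5 gained a call. The gene asmt2, which did not pass, stood at -0.13 with library totals.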
